A study of Homo sapiens with 4 samples.

Results

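Notch signaling works between touching cells. A ligand of the Delta-like or Jagged family on 1 cell binds a NOTCH receptor on its neighbor, the receptor is cleaved, and its intracellular part joins the DNA-binding protein RBPJ in the nucleus to switch on repressors of the HES and HEY families. In developing vessels this pathway is known for setting arterial identity, and it also acts in hemogenic endothelium, the endothelium from which blood cells emerge. Here 10 genes of the pathway were followed, namely the ligands DLL4, JAG1 and JAG2, the receptors NOTCH1, NOTCH2, NOTCH3 and NOTCH4, and the targets HEY1, HEY2 and HES1. They were chosen by symbol, each had 1 row, and they make up 10 of the 58365 rows of the table.

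RNA-seq was performed on the established hESC (human embryonic stem cell) line H1, collected at day 8 of hematopoietic differentiation. All libraries shared 2 days of activin A (40 ng/ml) and BMP4 (50 ng/ml), and then VEGF (40 ng/ml) and bFGF (50 ng/ml) for 3 days. VEGF and bFGF were kept for the last 3 days, in which 2 libraries (SB) also received SB431542, an inhibitor of TGFβ type I receptors, and the 2 controls carry the name DMSO. The study describes sorting CD31+ cells for sequencing, which the labels leave out, and nothing states whether the replicate numbers 1 and 2 mark separate cultures, so p-values measure the spread between these samples and that spread may be technical. Levels are in FPKM (fragment counts divided by transcript length and by the mapped fragments of the library), and differences are SB minus DMSO on the log2(FPKM + 1) scale, which understates the change of low genes.

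Endothelial genes were abundant in all 4 libraries. Genes of other lineages were present too, such as COL1A1 at 107.5 and 78.5 FPKM and APOA1 at 64.2 and 56.3 FPKM with DMSO. The purity of the cells was not tested. The CD31 gene PECAM1 lay between 152.6 and 197.1 FPKM and the summed level of 12 pan-endothelial markers between 2194 and 2608 FPKM. Relative depth, read from the smallest steps of low values, was 75.6% to 100% of the deepest library, SB replicate 2, and absolute depth is unknown.

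The promoters of HES1 and HEY2 are shown first because HES1 and HEY2 were the pair of members with the letters TGGGAA, the core that RBPJ recognizes, before their start sites, and because they lay at opposite ends of the response described below. Sequences are from RefSeq on GRCh38.p14, 5′ to 3′ on the + strand, with the 250 bases before the RefSeq start and TGGGAA or its reverse complement in capitals. The HES1 window is chr3:194135898-194136147 and the HEY2 window is chr6:125749382-125749631.
HES1: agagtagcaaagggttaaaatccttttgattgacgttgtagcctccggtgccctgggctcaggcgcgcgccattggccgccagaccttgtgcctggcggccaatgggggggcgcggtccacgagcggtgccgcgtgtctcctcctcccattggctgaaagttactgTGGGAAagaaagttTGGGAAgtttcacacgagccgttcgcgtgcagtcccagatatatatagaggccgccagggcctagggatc
HEY2: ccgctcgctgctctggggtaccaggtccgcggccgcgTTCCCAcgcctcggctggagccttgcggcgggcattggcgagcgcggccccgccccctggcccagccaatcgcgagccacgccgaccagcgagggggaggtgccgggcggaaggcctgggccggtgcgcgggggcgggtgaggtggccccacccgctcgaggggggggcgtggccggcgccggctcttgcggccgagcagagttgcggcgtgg

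HES1 held TGGGAA at 2 places, with first bases at -84 and -70 from the start. HEY2 held it on the reverse strand at -213 and on the forward strand across the start itself, beginning at -3, in the 30 bases chr6:125749617-125749646.
HEY2 start: agagttgcggcgTGGGAAagagccgctagg

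These letters contain GGAA, the core of ETS sites, and on either strand they occurred in 20.8% of the 35116 promoter windows of that length. Of the 9 members with a window in the table, 2 held them upstream. The letters CAGAC, read by SMAD proteins, were found in 2 of the 9 windows (DLL4 and HES1), against 38.0% of all windows. CACGTG, an E-box that HES and HEY proteins can bind, was found in 0 of the 9, against 6.34% of all. CACGNG, the wider class C site of these repressors, which includes CACGTG, was found in 4 of the 9 (DLL4, JAG2, NOTCH3 and HES1), against 26.7% of all. Matches across or just after the start were outside these counts, namely CAGAC in JAG1, NOTCH4 and HEY2, and CACGNG in DLL4, JAG1 and NOTCH2. A match is a description of the letters only. The RefSeq start of HEY2 lies 1968 bases inside the gene as the table gives it, and HEY1 had no entry.

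To ask how SB431542 treatment bears on the pathway, SB and DMSO libraries were compared. In both replicate numbers 9 of the 10 members stood lower with SB431542, against 30.6% of all tested genes, and HES1 was lower in replicate 1 alone. HEY2 had the largest difference, with 71.4% and 72.2% less FPKM in replicates 1 and 2. With limma, 0 of the 10 passed an adjusted p of 0.05, against 0.134% of all tested genes (20 genes), so none of these differences is a call. At an unadjusted p under 0.05 stood 5 members, all lower (DLL4, JAG1, JAG2, HEY1 and HEY2), against 5.16% of all tested genes that were lower at that level. In 6 members both SB libraries lay below both DMSO libraries, against 16% of all tested genes. The median difference of the 10 members was -0.66, with -0.67 and -0.59 within replicates 1 and 2, beside 0.04 for all tested genes. This median became -0.38 once DMSO replicate 1 was left out and -0.42 once SB replicate 2 was. When the replicate number was instead entered as a block, which the labels do not establish as a pairing, 8 members passed the adjustment as lower (all but NOTCH2 and HES1), against 4.99% of all tested genes. Fewer cells that express a gene and less of its RNA per cell cannot be told apart in such bulk libraries.

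**Figure D1:**
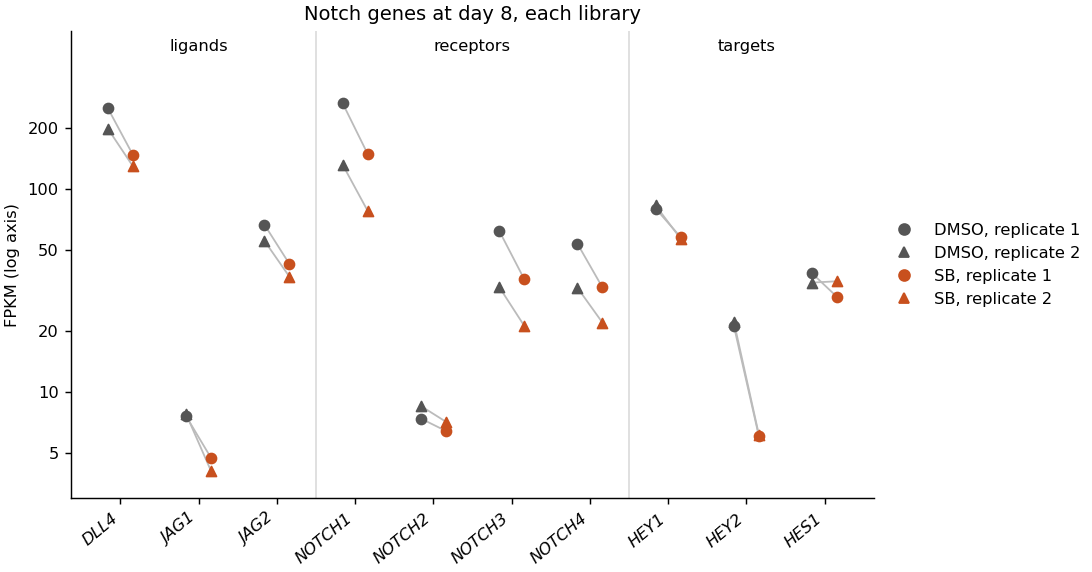
FPKM of the 10 Notch genes on a log axis, with DMSO libraries in grey and SB libraries in orange, circles for replicate 1 and triangles for replicate 2, and a line joining libraries of the same number. Every line slopes down except that of HES1 in replicate 2, and the steepest pair belongs to HEY2, which went from 21.2 and 22.2 to 6.07 and 6.17 FPKM.

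DLL4 was the most abundant ligand. DLL4 (ENSG00000128917.6, chromosome 15, 40929340 to 40939072, GRCh38) is the Delta-like ligand of arterial and sprouting endothelium. It stood at 250.5 and 198.6 FPKM in DMSO replicates 1 and 2 and at 147.6 and 129.7 FPKM in SB replicates 1 and 2. Both SB libraries were below both DMSO libraries. The means were 224.5 ± 36.6 and 138.6 ± 12.6 FPKM (SD, n = 2 each), with a difference of -0.69 (SE 0.19, limma adjusted p 0.349). Within replicates 1 and 2 the differences were -0.76 and -0.61.

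JAG2 (ENSG00000184916.8, chromosome 14, 105140981 to 105168824), a Jagged ligand, was present at 67.0 and 55.7 FPKM with DMSO and at 42.8 and 37.1 FPKM with SB431542. The groups did not overlap, and the difference was -0.60 (SE 0.19, limma adjusted p 0.391). JAG1 (ENSG00000101384.11, chromosome 20, 10637684 to 10674107), the other Jagged ligand, was far less abundant, with 7.61 and 7.80 FPKM in the DMSO libraries and 4.73 and 4.07 FPKM in the SB libraries. Its DMSO libraries lay close together and its SB libraries were both lower (difference -0.69, SE 0.17, limma adjusted p 0.297).

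The proportions among the 3 ligands were similar in the 4 libraries. DLL4 made up 77.1% and 75.8% of their summed FPKM with DMSO and 75.6% and 75.9% with SB431542, and these ranges overlapped. JAG2 made up 20.6% and 21.3% with DMSO and 21.9% and 21.7% with SB431542, where both shares were slightly higher than either DMSO share. JAG1 contributed between 2.34% and 2.97% in the 4 libraries.

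Among the receptors NOTCH1 was the most abundant, and NOTCH1, NOTCH3 and NOTCH4 shared a pattern in which the replicate number mattered as much as the treatment. NOTCH1 (ENSG00000148400.9, chromosome 9, 136494444 to 136545862), the receptor required for definitive blood formation in the mouse embryo, stood at 265.4 and 132.1 FPKM in DMSO replicates 1 and 2 and at 149.2 and 78.2 FPKM in SB replicates 1 and 2. SB replicate 1 thus lay above DMSO replicate 2, and the groups overlapped. The difference was -0.79 (SE 0.46, limma adjusted p 0.719), and within replicates 1 and 2 it was -0.83 and -0.75, that is 43.8% and 40.8% less FPKM. It became -0.29 without DMSO replicate 1, -1.29 without DMSO replicate 2, -1.25 without SB replicate 1 and -0.33 without SB replicate 2.

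NOTCH3 (ENSG00000074181.8, chromosome 19, 15159038 to 15200981), best known from mural cells around vessels, stood at 62.5 and 33.0 FPKM with DMSO and at 36.1 and 21.3 FPKM with SB431542. NOTCH4 (ENSG00000204301.6, chromosome 6, 32194843 to 32224067), a receptor largely of endothelium, stood at 54.0 and 32.7 FPKM with DMSO and at 32.8 and 22 FPKM with SB431542. In both genes SB replicate 1 lay above DMSO replicate 2. The differences were -0.69 for NOTCH3 (SE 0.40, limma adjusted p 0.719) and -0.63 for NOTCH4 (SE 0.33, limma adjusted p 0.669). Within replicates 1 and 2 they were -0.78 and -0.61 for NOTCH3 and -0.70 and -0.55 for NOTCH4. Without DMSO replicate 1 or SB replicate 2 the difference of NOTCH3 became -0.24 or -0.32, and without DMSO replicate 2 or SB replicate 1 it became -1.14 or -1.06. For NOTCH4 the same omissions gave -0.27 or -0.35, and -0.98 or -0.90.

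NOTCH2 (ENSG00000134250.19, chromosome 1, 119911553 to 120069626) was the least abundant receptor and differed least, with 7.41 and 8.55 FPKM in the DMSO libraries and 6.44 and 7.15 FPKM in the SB libraries. The groups did not overlap, but the difference of -0.20 (SE 0.17, limma adjusted p 0.820) was about as large as its error. NOTCH2NL, a near-identical partial copy of NOTCH2, was listed at 2.13 to 3.01 FPKM, so reads may be shared between them and the values of NOTCH2 are uncertain.

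NOTCH1 made up 68.2% and 64.0% of the summed receptor FPKM with DMSO and 66.4% and 60.8% with SB431542. NOTCH3 held 16% to 16.5% in the 4 libraries. The summed ligands were 0.835 and 1.27 times the summed receptors in DMSO replicates 1 and 2 and 0.869 and 1.33 times in SB replicates 1 and 2. That balance followed the replicate number and its ranges overlapped between the treatments.

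The targets diverged from each other. HEY2 (ENSG00000135547.8, chromosome 6, 125747664 to 125761269), a repressor known for arterial and cardiac development, stood at 21.2 and 22.2 FPKM with DMSO and at 6.07 and 6.17 FPKM with SB431542. Libraries of a group lay close together and far from those of the other group. The means were 21.7 ± 0.714 and 6.12 ± 0.0696 FPKM (SD, n = 2 each), with a difference of -1.67 (SE 0.16, limma adjusted p 0.0697). It was -1.65 and -1.70 within replicates 1 and 2, and 0.590% of all tested genes had a lower value. By unadjusted p it ranked 33 among the 14909 tested genes.

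HEY1 (ENSG00000164683.16, chromosome 8, 79764010 to 79767863), the close relative of HEY2 and the most abundant target, stood at 80.3 and 83.1 FPKM with DMSO and at 58.0 and 57.1 FPKM with SB431542. The groups did not overlap, and the difference was -0.50 (SE 0.15, limma adjusted p 0.388). HEY2 thus amounted to 26.4% and 26.7% of HEY1 with DMSO and to 10.5% and 10.8% with SB431542. This ratio is taken within each library, so scaling one library against another does not alter it.

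HES1 (ENSG00000114315.3, chromosome 3, 194136145 to 194138732), a Notch target with a role in the emergence of blood stem cells, stood at 38.5 and 34.7 FPKM with DMSO and at 29.4 and 35.2 FPKM with SB431542. SB replicate 2 lay above DMSO replicate 2, so the groups overlapped. The difference was -0.18 (SE 0.18, limma adjusted p 0.862), with -0.38 and 0.02 within replicates 1 and 2.

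In the order of mean levels, DLL4, NOTCH1, HEY1 and JAG2 led in this sequence in both groups. DLL4 and NOTCH1 could not be separated in either group, since their libraries overlapped. With DMSO, JAG2 overlapped NOTCH3, NOTCH3 overlapped NOTCH4 and NOTCH4 overlapped HES1 in the order of means, as NOTCH2 did JAG1 at its end. HEY2 stood above NOTCH2 in both DMSO libraries and below it in both SB libraries.

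The gap between replicate numbers was wide in 3 members. In the DMSO libraries, replicate 1 minus replicate 2 was 1.0 for NOTCH1, 0.90 for NOTCH3 and 0.71 for NOTCH4 on the log2 scale, and in the SB libraries it was 0.92, 0.74 and 0.56. For the other 7 members it lay between -0.18 and 0.33 with DMSO. NOTCH1, NOTCH3 and NOTCH4 have GC-rich transcripts, with 62.9%, 63.1% and 61.7% GC in the longest GENCODE transcript, against a median of 48.8% over tested genes. HEY2, HEY1, NOTCH2, JAG1 and HES1 had between 47.3% and 49.9%. JAG2 and DLL4, however, had 64.0% and 59.7% GC and gaps of only 0.26 and 0.33 with DMSO. Across 14880 tested genes Pearson's r between GC content and this gap was 0.51 with DMSO and 0.40 with SB431542, whereas between GC content and the SB minus DMSO difference it was -0.10. These correlations are across genes that share their 4 libraries. The mitochondrial share of summed FPKM also followed the replicate number. It was 5.88% (DMSO) and 6.64% (SB) in replicate 1 and 9.92% (DMSO) and 10.2% (SB) in replicate 2. The part of GC content or of this share in the gap was not tested.

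**Figure D2:**
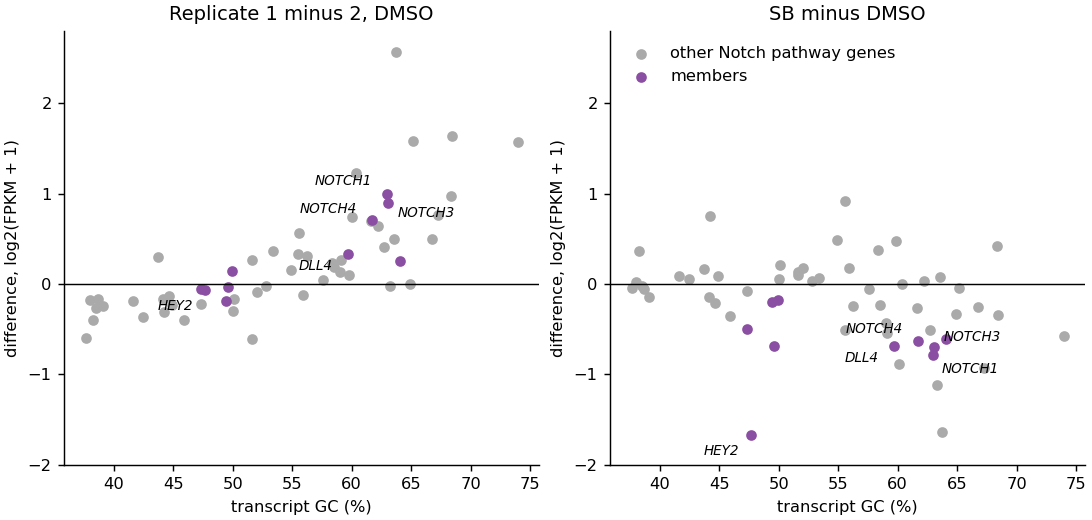
GC content of the longest transcript (%) against the difference between DMSO replicates 1 and 2 (left) and between SB and DMSO (right), both in log2(FPKM + 1), for the members (purple) and the other tested Notch pathway genes (grey). On the left NOTCH1 (1.0), NOTCH3 (0.90) and NOTCH4 (0.71) sit high at over 60% GC. On the right HEY2 (-1.67) lies apart from the other members at 47.6% GC, and TLE2 (-1.64, grey) is about as low at 63.7% GC.

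To place the members in their pathway, 53 other Notch genes were listed by role, of which 48 were tested. With limma 0 of the 48 passed an adjusted p of 0.05. At an unadjusted p under 0.05 stood 3 that were higher (against 4.8% of all tested genes) and 2 that were lower (against 5.16%). In both replicate numbers 19 were higher (against 40.9% of all tested genes) and 21 lower (against 30.6%). Without overlap between the groups stood 10 as higher (against 21.5% of all tested genes) and 11 as lower (against 16%). Their median difference was -0.03, beside 0.04 for all tested genes and -0.66 for the members.

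Of the other targets and feedback genes, NRARP, HES7, HEYL and HES4 stood lower with SB431542 in both numbers and HES6 stood higher. NRARP, a Notch target that feeds back on the receptor's intracellular part, stood at 122.2 and 71.7 FPKM with DMSO and at 56.8 and 41.5 FPKM with SB431542. Its groups did not overlap (difference -0.93, SE 0.32, limma adjusted p 0.452). HES7, a HES factor of the segmentation clock, stood at 3.82 and 3.90 FPKM with DMSO and at 0.915 and 1.61 FPKM with SB431542 (difference -1.12, limma adjusted p 0.233). HEYL, the remaining HEY factor, was low throughout, with 2.14 and 1.61 FPKM against 1.13 and 0.820 FPKM (difference -0.54, limma adjusted p 0.556).

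HES4 had the highest mean of the 53 genes, with 346.3 and 115.4 FPKM with DMSO and 223.1 and 80.2 FPKM with SB431542, and it overlapped between groups. Its difference of -0.58 (limma adjusted p 0.897) turned to 0.21 without DMSO replicate 1 and to 0.16 without SB replicate 2. Its transcript had 73.9% GC and the gap between its DMSO replicates was 1.58. HES6 stood at 14.2 and 6.76 FPKM with DMSO and at 16.4 and 11.2 FPKM with SB431542, with overlap (difference 0.43, limma adjusted p 0.833). HES2 and HES5 were under the filter of 1 FPKM.

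NUMBL, an adaptor related to the Notch inhibitor NUMB, stood at 21.6 and 12.6 FPKM with DMSO and at 11.1 and 6.41 FPKM with SB431542 (difference -0.89, limma adjusted p 0.532), without overlap. TLE2, a corepressor that HES proteins recruit, showed a large difference of -1.64 but a larger spread (SE 1.10, limma adjusted p 0.760), from 81.0 and 12.8 FPKM to 22.3 and 4.01 FPKM. Within replicates 1 and 2 it was -1.82 and -1.46, and its libraries overlapped between groups. It became -0.35 without DMSO replicate 1, -2.92 without DMSO replicate 2, -2.75 without SB replicate 1 and -0.53 without SB replicate 2. MAML1, a coactivator of the RBPJ complex, rested on 1 library, with 9.92, 7.64 and 9.82 FPKM in DMSO replicates 1 and 2 and SB replicate 1 and 3.30 FPKM in SB replicate 2. Its difference of -0.51 (limma adjusted p 0.838) became 0.16 without that library.

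Of the genes that act on ligands and receptors, some stood higher with SB431542. DLK1, a Delta-like protein without the domain that activates Notch receptors, stood at 91.8 and 61.6 FPKM with DMSO and at 151.9 and 134.9 FPKM with SB431542 (difference 0.92, SE 0.24, limma adjusted p 0.318). The Fringe glycosyltransferases, which tune how receptors respond to Delta-like and Jagged ligands, did not share a direction. LFNG stood at 47.4 and 35.3 FPKM against 31.2 and 25.9 FPKM (difference -0.51, limma adjusted p 0.560), and MFNG stood at 42.1 and 39.2 FPKM against 59.9 and 54.4 FPKM (difference 0.48, limma adjusted p 0.438). Neither overlapped between groups, and neither passed the adjustment. RFNG was lower in both numbers with overlap between the groups (difference -0.25, limma adjusted p 0.853).

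Of the genes of receptor cleavage, none stood at an unadjusted p under 0.05. Its 9 genes had a median difference of 0.16, and in both numbers 6 of them stood higher with SB431542 (against 40.9% of all tested genes) and 1 (FURIN) lower. PSEN2, a catalytic subunit of γ-secretase, stood at 11.7 and 10.4 FPKM with DMSO and at 17.7 and 14.1 FPKM with SB431542 (difference 0.48, limma adjusted p 0.510). RBPJ itself, chosen after its values were seen, had 19.3 and 22 FPKM with DMSO and 18.9 and 23.3 FPKM with SB431542, a difference of 0.02 (SE 0.19). DTX3L, of the Deltex family of ubiquitin ligases, stood at 0.731 and 1.14 FPKM with DMSO and at 1.99 and 2.51 FPKM with SB431542 (difference 0.75, limma adjusted p 0.395).

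**Figure D3:**
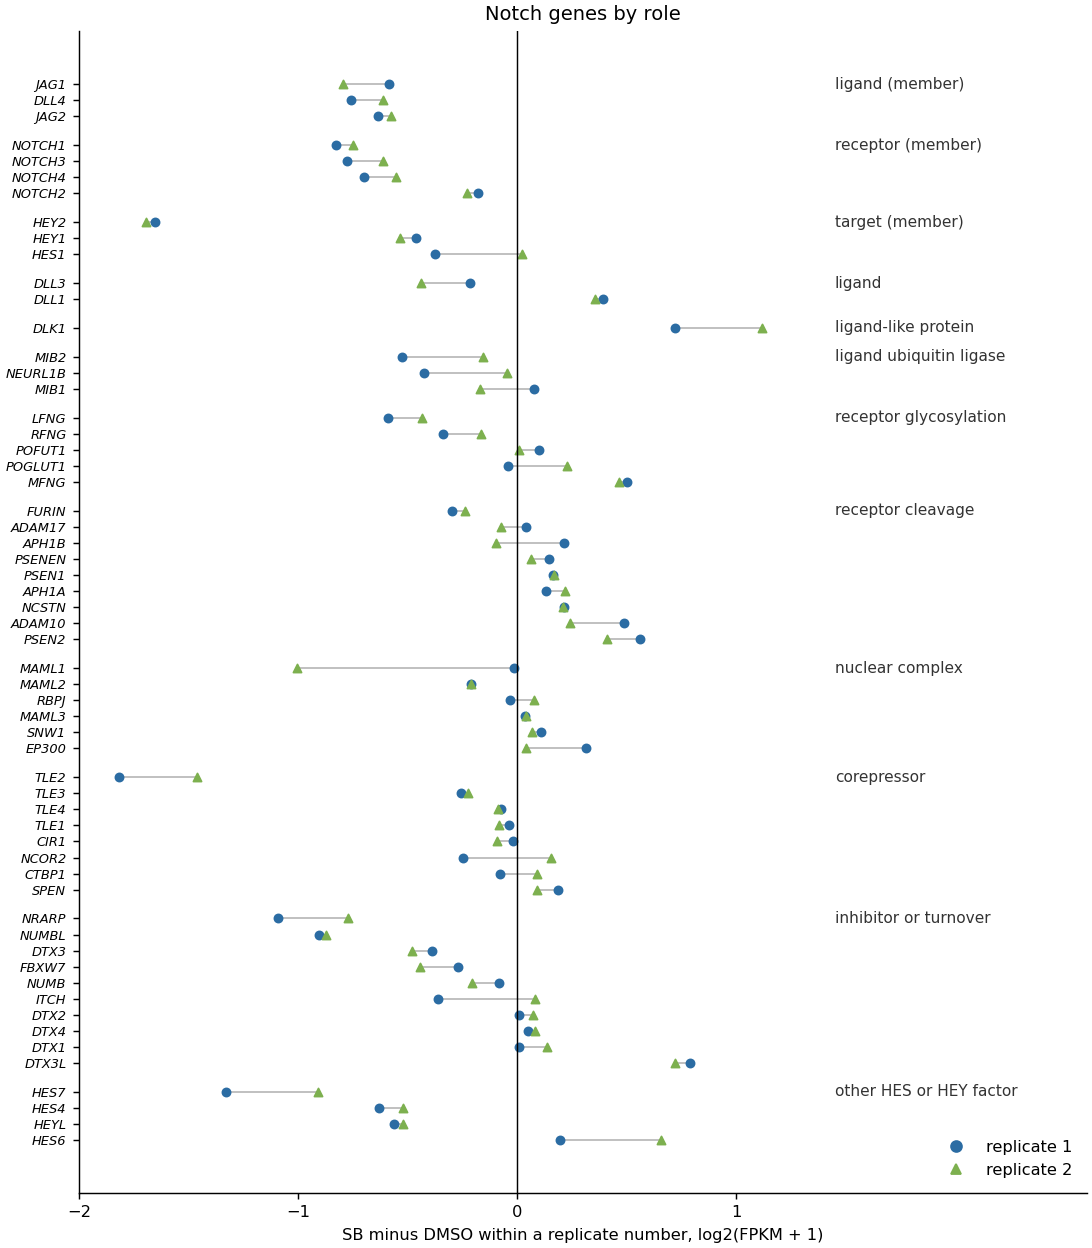
SB minus DMSO within replicate 1 (circles) and replicate 2 (triangles), in log2(FPKM + 1), for the 10 members and the 48 other tested Notch pathway genes, grouped by role. All member ligands and receptors lie left of 0 in both numbers, while 6 of the 9 genes of receptor cleavage lie right of it.

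The members were next set beside markers of the cell types that the culture could hold. The 12 pan-endothelial markers had a median difference of -0.07, with EGFL7 the most abundant and CLDN5, a tight junction gene, the most different (1.04, limma adjusted p 0.318). Per 100 FPKM of their sum, DLL4 amounted to 9.6 and 9.05 FPKM with DMSO and to 5.73 and 5.88 FPKM with SB431542. HEY2 amounted to 0.814 and 1.01 FPKM with DMSO and to 0.236 and 0.280 FPKM with SB431542. On this footing 8 of the 10 members had both SB libraries below both DMSO libraries, against 14.8% of all tested genes scaled likewise. NOTCH2 and HES1 overlapped. The sum itself followed the replicate number, with 2608 and 2194 FPKM in DMSO replicates 1 and 2 and 2575 and 2204 FPKM in SB replicates 1 and 2. NOTCH1, NOTCH3 and NOTCH4 overlapped without this scaling and NOTCH2 did not, and the part of the sum in these changes was not tested.

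Arterial markers had a median difference of -0.63 over 7 tested genes of 8 listed, with single genes from -2.78 to -0.06. This median was close to that of the members. All 7 were lower in both replicate numbers, against 30.6% of all tested genes. BMX, the untested gene, was higher in both, at 0.183 and 0.0769 FPKM with DMSO and 0.190 and 0.287 FPKM with SB431542. GJA5, an arterial connexin, passed the test with 490.6 and 399.8 FPKM with DMSO and 69.3 and 58.3 FPKM with SB431542 (difference -2.78, limma adjusted p 0.0365). GJA4, the most abundant of them, had a difference of -0.63 (limma adjusted p 0.679). Venous markers had a median of 0.53 over 6 genes. In both numbers 4 were higher (against 40.9% of all tested genes) and 2 lower (against 30.6%). Among them NRP2 had 0.92 (limma adjusted p 0.253) and EPHB4, the most abundant, had -0.33 (limma adjusted p 0.872).

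Markers of other lineages differed alongside the members. All 9 tested hematopoietic markers of 10 listed were higher in both numbers (median difference 0.80), against 40.9% of all tested genes. The summed level of the list was 417.0 to 457.2 FPKM with DMSO and 695.8 to 767.8 FPKM with SB431542. ITGA2B was the most abundant (difference 0.63) and GFI1B the most different (1.47, limma adjusted p 0.117), and PTPRC, which encodes CD45, stayed under 1 FPKM in each library. All 9 mural and mesenchymal markers were lower in both numbers (median difference -0.88), against 30.6% of all tested genes. Their sums were 360.5 and 442.2 FPKM with DMSO and 141.9 and 166.1 FPKM with SB431542. RGS5 was the most abundant (difference -1.31) and COL1A1 the most different (-2.46, limma adjusted p 0.0646), while PDGFRB lay between 4.0 and 5.06 FPKM. Of 5 endoderm and liver markers 4 were tested and 3 fell past the adjusted threshold, against 0.134% of all tested genes in either direction. They summed to 155.6 and 170.5 FPKM with DMSO and to 12.9 and 12.5 FPKM with SB431542, with APOA1 the most abundant and the most different (-3.81, limma adjusted p 0.0201). None of these mural or endoderm markers was listed at 0, and the part of these cell types in the differences of the Notch genes was not tested.

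**Figure D4:**
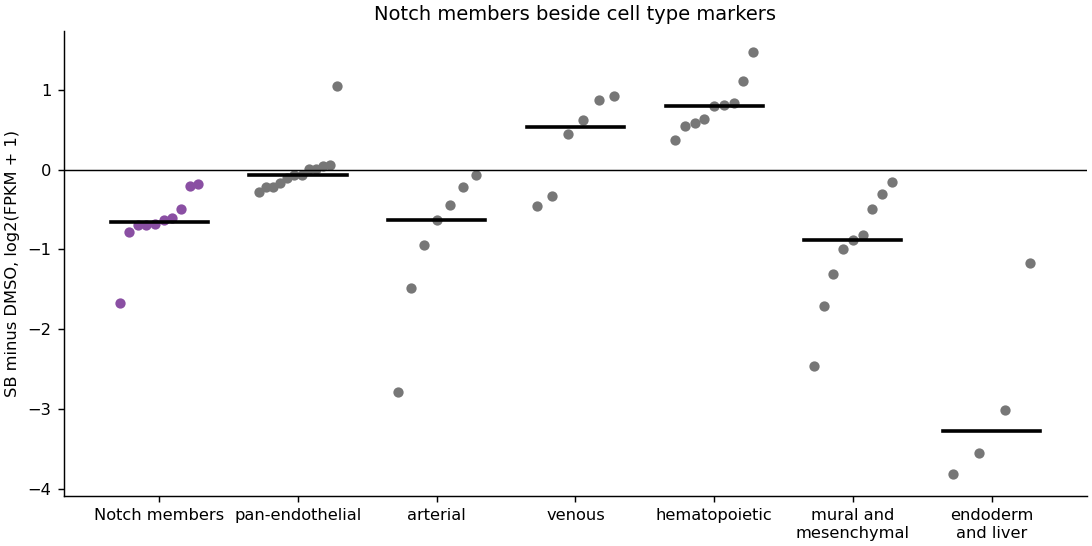
SB minus DMSO in log2(FPKM + 1) for each tested gene (points) of the Notch members and of 6 marker lists, with the median of each list as a bar. The members (median -0.66) lie between the mural and mesenchymal markers (-0.88) and the arterial ones (-0.63), and below the pan-endothelial ones (-0.07). Single arterial markers run from -2.78 to -0.06, and HEY2 lies apart from the other members at -1.67.

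For 1 ligand, 1 receptor and 1 target the genes with the most similar profile over the 4 libraries were found by Euclidean distance of log2(FPKM + 1), centered on each gene's mean. For DLL4 these were ALS2CL, HOXB-AS2 and FZD1, at distances of 0.015 to 0.059. For NOTCH4 they were the connexin gene GJA4, SMTNL2 and BAIAP3, at 0.049 to 0.050. For HEY2 they were IGFBP6, COL6A3 and TFPI2, at 0.10 to 0.13. Close profiles were common over so few libraries, with 222 genes within 0.25 of DLL4, 129 of NOTCH4 and 13 of HEY2.

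Overlapping genes could touch a few of these values, since the use of strand in counting is not stated. Shared bases are upper bounds, since bases in overlapping exon forms were counted repeatedly. GPSM3 shares up to 98 exonic bases with NOTCH4 on the same strand. It was listed at 12.7 and 13.8 FPKM with DMSO and at 17.7 and 16.2 FPKM with SB431542. AL512356.1 shares up to 469 exonic bases with JAG2 and reached at most 1.16 FPKM. An antisense gene, AL050403.2, shares up to 79 exonic bases with JAG1 and reached at most 0.185 FPKM.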

How the data were processed

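RNA-seq was performed by a service company. The authors deposited FPKM values, 1 column per library. The submitters' processing notes name BWA, Bowtie, RSEM and hg19 without roles, but positions in the table, counted from 0 at their start, matched GRCh38: 95.5% of identifiers had the same version in GENCODE release 29, and 99.8% of these the same position. Of the members, DLL4, JAG1 and NOTCH1 matched release 29 in neither version nor exact position. Coordinates are given from 1.

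Values were transformed to log2(FPKM + 1), and 14909 genes with a mean of at least 1 FPKM in at least 1 group were tested with limma 3.58.1 in R 4.3.3 (empirical Bayes with a trend, group as the only term, 4 libraries, two-sided, Benjamini-Hochberg adjustment over all tested genes, threshold 0.05). In this fit each SE and p-value blends a gene's own spread with the spread of genes at similar levels. The script was tested on simulated data in which libraries varied independently, so that test does not cover same-numbered libraries that deviate together. An exact permutation test of 2 against 2 libraries cannot give a p below 0.333 and was not used. The members, lists and tests were chosen with earlier results of these data known. Named are all members, the 12 other pathway genes with the largest absolute difference, the most abundant and most different gene of each marker list, and the 3 genes most like DLL4, NOTCH4 and HEY2. FURIN, RBPJ, RFNG, HES2, HES5, HES6, PECAM1, PDGFRB, PTPRC, BMX, NOTCH2NL and the genes overlapping members (GPSM3, AL512356.1 and AL050403.2) were named besides these, after their values were seen. Alternatives changed the filter, the pseudocount, the scaling, the design and the libraries used.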

Additional observations from a re-analysis of the deposited data

How the results depend on the processing

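With 2 libraries per group and unknown absolute depth, no counting error can be given for single values. Of the 11 alternatives, the replicate block and the changes of filter cannot alter a member's difference. Under the others (pseudocount, scaling and libraries left out) each of the 10 members stayed lower with SB431542. With all 4 libraries in the fit, 0 members passed the adjustment except under the replicate block. The labels give the groups the same replicate numbers without saying what these share, and same-numbered libraries deviated together (r = 0.53 across genes, 2 pairs). Under the replicate block 8 members passed (not NOTCH2 or HES1). So did 10 of the 48 other pathway genes, of which 7 were lower, against 4.99% of all tested genes that passed as lower. In all, 1564 of the 14909 tested genes passed, 744 of them lower and 820 higher. HEY2 then had a limma adjusted p of 0.00462 and NOTCH1 of 0.00755. Over all tested genes the count was 20 and became 0 without the filter (where 2739 had an unadjusted p under 0.05), 31 with quantile normalization, and 0 to 14 when single libraries were left out, the lone library of a group being taken to vary like the other group. Leaving out single libraries gave a median of the members of -0.79 to -0.38. The median of the other pathway genes was 0.0053 under the stricter filter of 5 FPKM in at least 2 libraries. Leaving out single libraries gave HES4 differences of -1.36 to 0.21 (0.16 without SB replicate 2) and MAML1 differences of -1.17 to 0.16. Among named genes not given above with these values, omitting DMSO replicate 1 moved NRARP to -0.55, NUMBL to -0.52 and LFNG to -0.30, omitting DMSO replicate 2 moved NOTCH2 to -0.11, and omitting SB replicate 1 moved HES1 to -0.05.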
